A study of Mus musculus with 40 samples.

Results

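The microRNAs mmu-miR-191-5p and mmu-miR-425-5p are the 5p strands of 2 neighbouring hairpins on mouse chromosome 9, and they were followed here in total blood of ageing mice. They were taken by name from the deposited counts, as 2 of 1915 rows. The mice were male C57B/6J wild type animals, kept in single housing, and blood was drawn from the retro-orbital sinus 4 times, at 12, 13.5, 15 and 16.5 months. All 4 groups share genotype, strain and sex, with 10 libraries per age and 40 in all. At 12 months blood was taken before any behavioural experiment and at the later ages after a water maze round, so age, repeated bleeding and training cannot be told apart. A home cage group without training also existed, and the labels do not say to which group a library belongs. The same mice were bled at successive ages, whereas the tests below treat the libraries as independent, since the labels do not name the mouse behind a library.

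A microRNA is cut from a folded hairpin by Drosha and Dicer. One strand, usually the same one, is loaded into an Argonaute protein and pairs with target mRNAs through its seed, bases 2 to 8. The other strand is mostly degraded. Hairpins that lie close together on 1 strand are often cut from a common primary transcript. miR-191 and miR-425 are abundant in blood cells and in many other tissues, and both are frequently used as reference microRNAs, to which the levels of other microRNAs in blood or serum are related.

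The precursors are shown to place the counted strands. In each line the 2 mature strands are in capitals, with the 5p strand first, and the sequence is that of RefSeq on GRCm38.p6.
Mir191 hairpin: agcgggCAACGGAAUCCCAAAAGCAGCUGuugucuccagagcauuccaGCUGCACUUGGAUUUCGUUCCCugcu
Mir425 hairpin: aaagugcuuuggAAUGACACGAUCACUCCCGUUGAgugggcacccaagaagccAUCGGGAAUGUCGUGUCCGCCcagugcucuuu
The mature strands follow, with the seed in capitals, because the seed decides with which other microRNAs a strand could share targets.
mmu-miR-191-5p: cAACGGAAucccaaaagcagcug
mmu-miR-425-5p: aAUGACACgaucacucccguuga
mmu-miR-191-3p: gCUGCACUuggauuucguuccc
mmu-miR-425-3p: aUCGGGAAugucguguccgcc

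Mir191 occupies chr9:108568319-108568392 and Mir425 chr9:108568777-108568861, both on the plus strand of GRCm38.p6, with 384 bases between them. In GENCODE M21 both hairpins lie inside an exon of the long noncoding RNA gene 4833445I07Rik on the same strand (chr9:108567533-108569174), and a predicted microRNA gene on the minus strand, Gm24083, covers Mir191. The next protein coding gene on the plus strand, Dalrd3, starts 1024 bases after Mir425 in GENCODE, whereas the RefSeq span of Dalrd3 (chr9:108567484-108572773) covers both hairpins. The 5p strands have different seeds, AACGGAA and AUGACAC. Among 1679 mature mouse names in RefSeq, 0 others carried the seed of miR-191-5p, and 1 other, miR-489-3p, carried that of miR-425-5p. The row of miR-489-3p held 0 reads in the 40 libraries. No other mature sequence contained bases 3 to 17 of either 5p strand.

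The libraries held between 2469196 and 21386209 counts. The rows of miR-486, a red cell microRNA, made up most of them, and the counts outside miR-486 amounted to 6.24% ± 2.02 of a library (SD, n = 40). This share was 7.23% ± 1.55 at 12 months, 7.02% ± 1.58 at 13.5 months, 4.14% ± 1.20 at 15 months and 6.56% ± 2.13 at 16.5 months (SD, n = 10 each). miR-486a-5p and miR-486b-5p had equal counts in each library, so that these reads enter the total in both rows. Of the 1915 rows, 105 had more than 100 reads in at least 20 libraries, both members among them. Levels of these 105 are given as log2 CPM, counts relative to a library total scaled by edgeR's TMM factors, and differences between ages as log2 fold changes with standard errors (SE) from edgeR's quasi-likelihood test, adjusted by Benjamini-Hochberg over the 105. A difference is called where the adjusted p is under 0.05. The column names carry a letter tag with no stated meaning. Single letters A to J appear at 12 and 16.5 months, another series at 13.5 months, and B for 3 and C for 7 libraries at 15 months. Except between 12 and 16.5 months, the form of the tag and age cannot be told apart. A library of 16.5 months, that of tag G, stood apart from the rest in its correlation with the other libraries (Z score -3.27), and results without it are given where a call changed.

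miR-191-5p was abundant at all ages, and its level was highest at 16.5 months. It had between 16769 and 226503 reads per library and made up 0.907% ± 0.357 of all counts (SD, n = 40). Ranked by mean share of counts among all rows, it was the 4th at 12, 13.5 and 15 months and the 3rd at 16.5 months. Its level was 12.81 ± 0.27 log2 CPM at 12 months (SD, n = 10), with a lowest library of 12.24, a median of 12.89 and a highest of 13.15. At 13.5 months it was 13.06 ± 0.17, from 12.69 over a median of 13.04 to 13.30. At 15 months it was 12.79 ± 0.36, from 12.46 over a median of 12.69 to 13.70. At 16.5 months it was 13.45 ± 0.09, from 13.31 over a median of 13.46 to 13.56. Under TMM scaling the 16.5-month libraries lay close together, and each of them was above all libraries of 12 and 13.5 months. The 15-month range reached above them through a single library, while the remaining 9 were at or below 12.94.

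miR-425-5p was less abundant and was highest at 16.5 months too, but lowest at 13.5 months. It had between 236 and 5261 reads per library and made up 0.0218% ± 0.00866 of all counts (SD, n = 40). By mean share it was the 29th row at 12 and 15 months, the 36th at 13.5 and the 23rd at 16.5 months. Its level was 7.64 ± 0.16 log2 CPM at 12 months (SD, n = 10), from 7.36 over a median of 7.68 to 7.88. At 13.5 months it was 7.34 ± 0.18, from 7.10 over a median of 7.30 to 7.71. At 15 months it was 7.68 ± 0.15, from 7.47 over a median of 7.66 to 8.0. At 16.5 months it was 7.90 ± 0.27, from 7.41 over a median of 7.96 to 8.26. The groups overlapped at every pair of ages, and at 13.5 months 7 of 10 libraries were below all libraries of 12 months. The lowest library of 16.5 months was that of tag G.

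**Figure D1:**
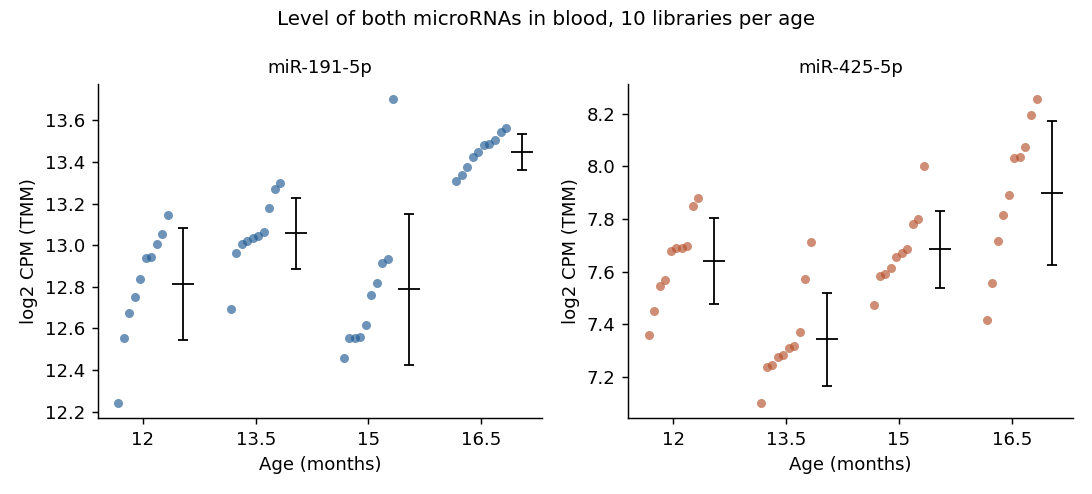
Level of miR-191-5p (left) and miR-425-5p (right) in log2 CPM with TMM scaling against age in months. Each point is 1 library, sorted by value within its age, and the bar beside the points is the mean with its SD (n = 10). For miR-191-5p all 16.5-month libraries are at or above 13.31 and all 12-month libraries at or below 13.15. For miR-425-5p the 13.5-month mean of 7.34 is the lowest of the 4.

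Both members differed over age, miR-191-5p with an adjusted p of 1.97e-05 and miR-425-5p with 3.80e-05 (edgeR, 3 age coefficients together). Of all 105 microRNAs tested, 64 (61.0%) were called over age, so that a call was common, and by p the members were the 23rd and 26th.

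At 16.5 against 12 months both members were called higher, as were 13.3% of the microRNAs tested. miR-191-5p differed by 0.61 on the log2 scale (SE 0.12, adjusted p = 0.000124, edgeR), or 1.53-fold, and all 10 libraries of 16.5 months were above all of 12 months. This absence of overlap under TMM scaling was found in 2 of 105 microRNAs (1.90%). miR-425-5p differed by 0.27 (SE 0.10, adjusted p = 0.0273, edgeR), or 1.21-fold, with 8 of 10 libraries above the 12-month mean. Scaled by library totals alone, which moved the median of all 105 to -0.25, the differences were 0.42 (adjusted p = 0.171) and 0.17 (adjusted p = 0.621) and were not called. The call of miR-425-5p was also lost when microRNAs with lower counts entered the fit (adjusted p = 0.106).

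At 13.5 against 12 months the members differed from 12 months with opposite signs. miR-425-5p fell by 0.30 on the log2 scale (SE 0.10, adjusted p = 0.0148, edgeR), or to 0.814 of its 12-month level, with 9 of 10 libraries below the 12-month mean. It was 1 of 15 microRNAs called lower (14.3%). miR-191-5p had a difference of 0.23 (SE 0.12, adjusted p = 0.137, edgeR) and was not among the 15.2% called higher. It was called without the 15-month library of tag B_26 (adjusted p = 0.0424), which enters the shared estimate of spread. The lower level of miR-425-5p was not called under library totals (adjusted p = 0.527) or with lower counts in the fit (adjusted p = 0.0512).

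At 15 against 12 months neither member was called, beside 23.8% of the microRNAs tested in either direction. The difference of miR-191-5p was -0.002 (SE 0.12, adjusted p = 0.999, edgeR) and that of miR-425-5p was 0.04 (SE 0.10, adjusted p = 0.768, edgeR). By library totals alone the differences were -0.87 (adjusted p = 3.99e-05) and -0.69 (adjusted p = 0.0127), with a median of -0.84 over all 105, so that the sign of miR-425-5p turned. The sign of miR-191-5p turned with median-ratio size factors (RLE), to 0.059 (adjusted p = 0.719, edgeR).

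Under TMM scaling the signs were opposite again from 13.5 to 15 months. miR-425-5p was higher at 15 months by 0.34 (SE 0.10, adjusted p = 0.00296, edgeR), with 10 of 10 libraries above the 13.5-month mean, whereas library totals alone gave -0.39 (adjusted p = 0.160) with a median of -0.81 over all 105. It was among the 17.1% called higher. miR-191-5p had a difference of -0.23 (SE 0.12, adjusted p = 0.0903, edgeR) and was not among the 30.5% called lower. Without the library of tag B_26 its difference was -0.37 (adjusted p = 0.000717), and the call was made. Under library totals alone miR-191-5p had -1.08 (adjusted p = 8.84e-07, edgeR), so that both members had a negative sign there.

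Against 13.5 months both members were called higher at 16.5 months, as were 18.1% of the microRNAs tested. miR-425-5p differed by 0.57 (SE 0.10, adjusted p = 4.79e-06, edgeR), or 1.49-fold, with 10 of 10 libraries above the 13.5-month mean. miR-191-5p differed by 0.38 (SE 0.12, adjusted p = 0.00636, edgeR), or 1.30-fold. Under TMM scaling its libraries did not overlap, which held for 2.86% of the 105 in this direction. Under library totals both differences remained positive, 0.47 and 0.21, and neither was called (adjusted p = 0.158 and 0.364).

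From 15 to 16.5 months miR-191-5p was called higher, by 0.62 (SE 0.12, adjusted p = 7.86e-05, edgeR), or 1.53-fold, together with 19.0% of the microRNAs tested. All 10 libraries of 16.5 months were above the 15-month mean. miR-425-5p had a difference of 0.23 (SE 0.10, adjusted p = 0.0587, edgeR) and was not called. It was called without any 1 of 4 libraries, that of tag B_25 at 15 months or those of tags B, F and G at 16.5 months, with adjusted p from 0.0204 to 0.0481. Ordered by level, miR-191-5p thus ran 16.5, 13.5, 12 and 15 months, and of the neighbours in this order only 16.5 and 13.5 months were called different. miR-425-5p ran 16.5, 15, 12 and 13.5 months, and only 12 and 13.5 months were called different.

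**Figure D2:**
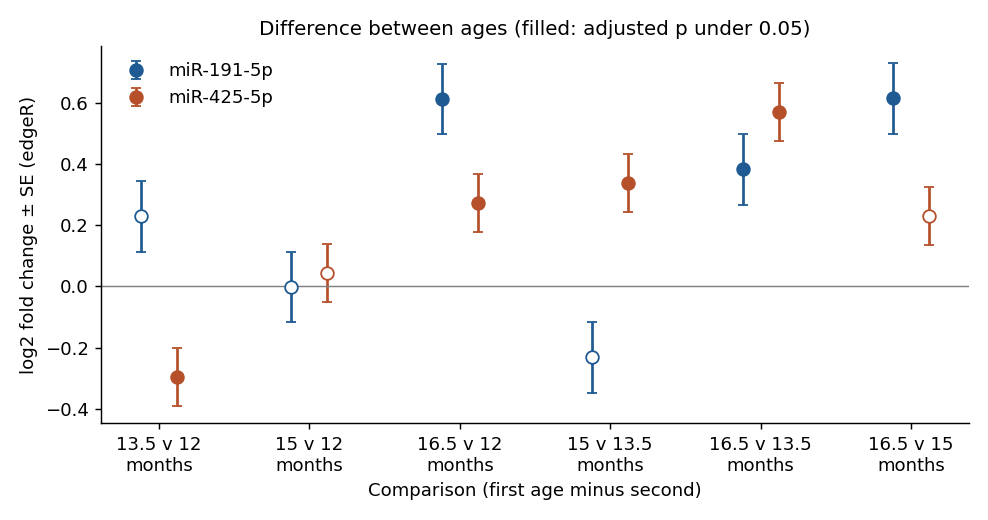
Log2 fold change with its SE from edgeR for the 6 comparisons between ages, miR-191-5p in blue and miR-425-5p in orange, filled where the adjusted p is under 0.05. At 16.5 against 12 months both are filled, at 0.61 and 0.27, and at 13.5 against 12 months the members stand on opposite sides of 0. Under library totals alone the sign of miR-425-5p turned at 15 against 12 and at 15 against 13.5 months.

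The share of counts shows how far the 15-month values rest on the denominator. miR-191-5p made up 0.897% ± 0.206 of all counts at 12 months, 1.04% ± 0.142 at 13.5 months, 0.491% ± 0.105 at 15 months and 1.2% ± 0.410 at 16.5 months (SD, n = 10 each). Its share was thus lowest at 15 months, with a highest library of 0.600% there. Of the counts outside miR-486 it made up 12.4% ± 1.52, 15.2% ± 2.67, 12.3% ± 2.29 and 18.2% ± 0.990 at the same ages, so that 15 and 12 months lay close together. Over these remaining counts the lowest 16.5-month library had 16%, the highest 12-month library 14.2% and the highest 13.5-month library 19.0%. Over all counts the 16.5-month libraries ran from 0.537% to 1.69% and the 12-month libraries from 0.575% to 1.11%, so that these ages overlapped.

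miR-425-5p made up 0.0245% ± 0.00390 of all counts at 12 months, 0.0199% ± 0.00414 at 13.5 months, 0.0152% ± 0.00547 at 15 months and 0.0276% ± 0.0129 at 16.5 months (SD, n = 10 each). Of the counts outside miR-486 it made up 0.344% ± 0.0358, 0.289% ± 0.0495, 0.358% ± 0.0580 and 0.397% ± 0.0874. The age with the lowest mean was therefore 15 months over all counts and 13.5 months over the counts outside miR-486. The counting error of a single library was small against these spreads. The lowest share of miR-425-5p was 0.00430% (95% Wilson interval 0.00382 to 0.00483) and the lowest of miR-191-5p 0.302% (0.298 to 0.306). These intervals cover counting error only, since amplified reads without molecular identifiers are not independent molecules.

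**Figure D3:**
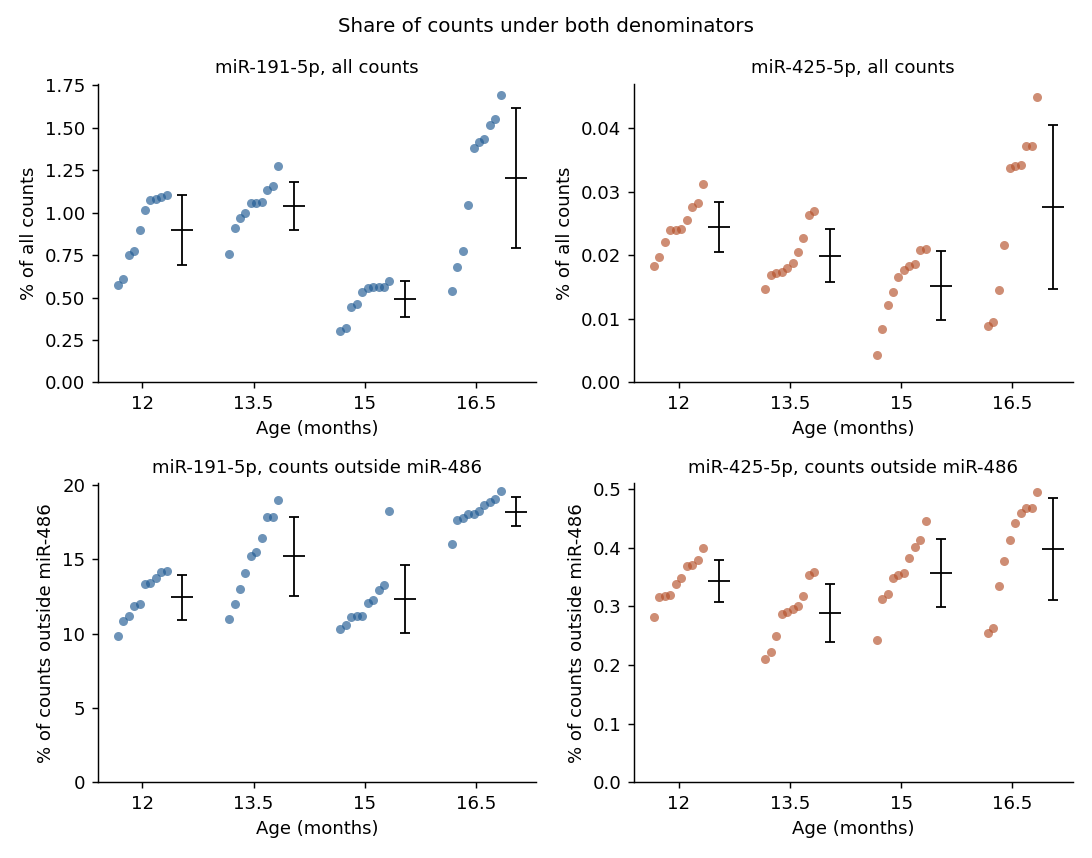
Share of miR-191-5p (left) and miR-425-5p (right) in percent of all counts (top) and of the counts outside the miR-486 rows (bottom) against age in months. Points are libraries and bars the mean with its SD (n = 10). The 15-month libraries of miR-191-5p are at or below 0.600% in the top panel, whereas in the bottom panel their mean of 12.3% is close to the 12.4% of 12 months.

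The ratio of the members within a library needs no scaling factor, and both strands are 23 bases long. One read of miR-425-5p was accompanied by 36.6 ± 5.72 reads of miR-191-5p at 12 months, 53.2 ± 8.49 at 13.5 months, 36.1 ± 14.2 at 15 months and 47.8 ± 10.9 at 16.5 months (SD, n = 10 each). On the log2 scale the ratio of miR-425-5p to miR-191-5p was -5.18 ± 0.24 at 12 months, from -5.49 over a median of -5.24 to -4.70. It was -5.72 ± 0.24 at 13.5 months, from -5.98 over -5.78 to -5.29. At 15 months it was -5.10 ± 0.43, from -6.23 over -4.99 to -4.68, and at 16.5 months -5.55 ± 0.30, from -6.15 over -5.46 to -5.23. The ratio was thus higher at 12 and 15 months and lower at 13.5 and 16.5 months, with overlap of the ranges at each pair of ages.

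A two-sided permutation test with 100000 resamples, adjusted over the 6 comparisons, called 4 of them. The ratio was lower at 13.5 than at 12 months by a log2 difference of -0.54 (SE 0.11, adjusted p = 0.00120), in 10 of 10 libraries relative to the 12-month mean. At 16.5 months it was lower than at 12 months, with -0.37 (SE 0.12, adjusted p = 0.00992), and lower than at 15 months, with -0.45 (SE 0.17, adjusted p = 0.0240). At 15 months it was higher than at 13.5 months, with 0.61 (SE 0.16, adjusted p = 0.00636). The comparisons of 15 with 12 months (0.07, SE 0.16, adjusted p = 0.691) and of 16.5 with 13.5 months (0.17, SE 0.12, adjusted p = 0.226) were not called. Changes of this size were common between microRNAs: over all 5460 pairs of the 105, the absolute difference at 13.5 against 12 months had a median of 0.41, and 62.4% of pairs changed less than the members did. At 16.5 against 12 months 48.8% of pairs changed less.

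**Figure D4:**
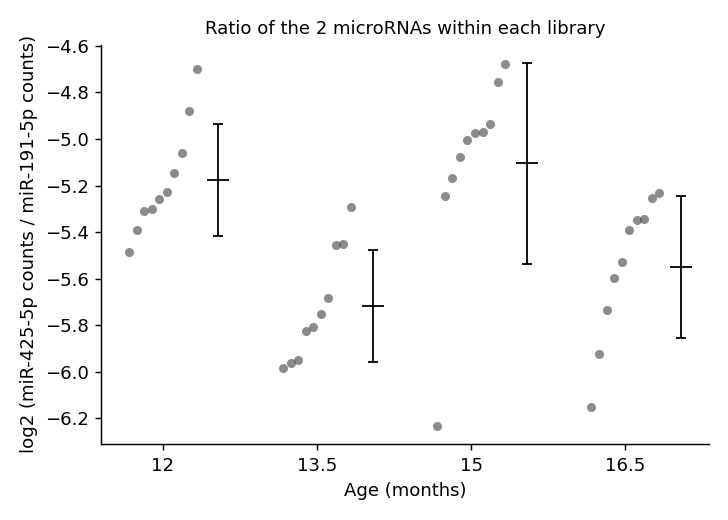
Log2 ratio of the counts of miR-425-5p to those of miR-191-5p in each library against age in months. Points are libraries and bars the mean with its SD (n = 10). The means are -5.18, -5.72, -5.10 and -5.55 in order of age, and 1 library of 15 months lies at -6.23.

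The 3p strands of both hairpins were read in each library, at far lower counts. miR-191-3p had between 1 and 25 reads, with a median of 8 at 12 months, 11 at 13.5 months, 4 at 15 months and 9.5 at 16.5 months. miR-425-3p had between 1 and 75 reads, with medians of 39.5, 18.5, 6.5 and 18 at the same ages. Of all reads of its hairpin the 5p strand made up 99.99% ± 0.0038 for miR-191 and 99.0% ± 0.441 for miR-425 (SD, n = 40). The 5p strand was thus the abundant one in both hairpins, and the 3p strand took a larger part of the reads in miR-425 than in miR-191. Neither 3p strand passed the read filter, so they were compared with the 5p strand of their hairpin and not tested on their own.

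The log2 ratio of the 5p to the 3p strand of miR-425, with 0.5 added to both counts, was 6.33 ± 0.42 at 12 months, 6.52 ± 0.53 at 13.5 months, 6.72 ± 0.74 at 15 months and 7.35 ± 0.45 at 16.5 months (SD, n = 10 each). At 16.5 months it ran from 6.62 over a median of 7.28 to 8.28, and at 12 months from 5.83 over 6.20 to 7.23. At 16.5 against 12 months it was higher by 1.02 (SE 0.20, adjusted p = 0.000840, permutation test), or 2.03-fold, in 10 of 10 libraries relative to the 12-month mean. At 16.5 against 13.5 months it was higher by 0.83 (SE 0.22, adjusted p = 0.00624, permutation test). At 16.5 against 15 months the difference was 0.63 (SE 0.27, adjusted p = 0.0677, permutation test). It was called without the 3 libraries of tag B (0.84, adjusted p = 0.00905), without that of tag B_24 alone (0.79, adjusted p = 0.00576) and without that of tag D at 16.5 months (0.71, adjusted p = 0.0381). The remaining 3 comparisons were not called, with adjusted p from 0.247 to 0.505. As a description, the mean share of miR-425-3p in all counts was 0.000319% at 12 and 0.000181% at 16.5 months, while that of miR-425-5p was 0.0245% and 0.0276%. miR-425-3p had 1 to 51 reads per library at 16.5 months and 22 to 75 at 12 months, so that some of these ratios rest on few reads. With 1 in place of 0.5 added, the difference at 16.5 against 12 months was 0.93 (adjusted p = 0.000960, permutation test).

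For miR-191 the same ratio was 13.64 ± 0.57 at 12 months, 13.43 ± 0.53 at 13.5 months, 12.99 ± 0.53 at 15 months and 13.44 ± 0.63 at 16.5 months (SD, n = 10 each). No comparison was called by the permutation test, and 1 of the 6 had an unadjusted p under 0.05. The lowest adjusted p, 0.105, belonged to 15 against 12 months, with a difference of -0.64 (SE 0.25). With 1 in place of 0.5 added to the counts this comparison was called (-0.76, adjusted p = 0.0168), as was 15 against 13.5 months (-0.55, adjusted p = 0.0429). The comparison of 15 with 12 months was also called without the library of tag B_26 (-0.73, adjusted p = 0.0426) or that of tag C_7 (-0.73, adjusted p = 0.0472). The 3p strand had at most 25 reads in a library, with a median of 4 at 15 months against 8 at 12 and 11 at 13.5 months. These ratios thus rest on few reads and on the size of the added count.

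**Figure D5:**
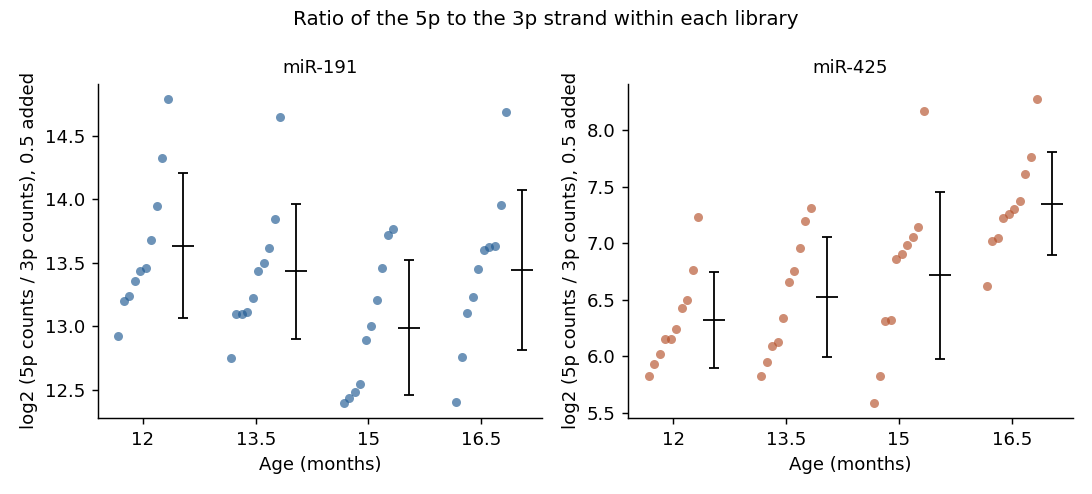
Log2 ratio of 5p to 3p counts, with 0.5 added to both, for the hairpins of miR-191 (left) and miR-425 (right) against age in months. Points are libraries and bars the mean with its SD (n = 10). The miR-425 means run from 6.33 at 12 months to 7.35 at 16.5 months, and those of miR-191 lie between 12.99 and 13.64.

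Reference microRNAs are chosen for a small spread. Under TMM scaling the spread within ages ranked lower among the tested microRNAs than the span between ages for both members, while under library totals alone the order was the opposite for miR-425-5p. Over the 40 libraries the SD of log2 CPM was 0.36 for miR-191-5p, the 23rd lowest of 105, and 0.28 for miR-425-5p, the 7th lowest, against a median of 0.48. Within ages the SD was 0.25 for miR-191-5p, the 13th lowest, and 0.20 for miR-425-5p, the 4th lowest, against a median of 0.37. The means of the 4 ages spanned 0.66 for miR-191-5p and 0.56 for miR-425-5p, the 57th and 44th lowest, against a median of 0.63. The spread within an age was thus among the smallest for miR-425-5p, while the span between ages was near that of the median microRNA for both. The biological coefficient of variation from edgeR was 19.6% for miR-191-5p and 16.5% for miR-425-5p, with a median of 25.7% over all 105. Under library totals alone the SD over the libraries was 0.62 for miR-191-5p and 0.66 for miR-425-5p, and miR-425-5p ranked 49th within ages and 25th by the span of age means.

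The members were also related to 8 other microRNAs in use as references (miR-423-3p, miR-423-5p, miR-484, miR-320-3p, miR-103-3p, miR-16-5p, miR-93-5p and miR-25-3p), by the log2 ratio of counts in each library. These ratios need no scaling factor, and the permutation p-values were adjusted over all 96 ratios and comparisons. At 16.5 against 12 months miR-191-5p was higher relative to 6 of the 8, with a median difference of 0.62 and a range from 0.11 to 1.34. miR-425-5p was higher relative to 3 of the 8, with a median of 0.25 and a range from -0.26 to 0.97. These 3 were miR-103-3p, miR-16-5p and miR-93-5p, whose own fold changes in that comparison were -0.33, -0.33 and -0.70, the first and last called lower by edgeR. At 13.5 against 12 months miR-425-5p was lower relative to 5 of the 8, with a median of -0.44, while miR-191-5p was higher relative to 1. At 16.5 against 13.5 months each member was higher relative to 6 of the 8, with medians of 0.52 and 0.69. At 15 against 12 months, where edgeR called neither member, miR-425-5p was higher relative to 4 and miR-191-5p to 2 of the 8. In edgeR 3 of the references were themselves called lower there, miR-320-3p (-0.52), miR-16-5p (-0.50) and miR-93-5p (-0.67), and all 3 are among those 4. At 15 against 13.5 months miR-425-5p was higher relative to 5, while miR-191-5p was higher relative to 3 and lower relative to 2. At 16.5 against 15 months miR-191-5p was higher relative to 5 and miR-425-5p to 1. A ratio can differ through the reference as well as the member. Of the 8 references edgeR called 1 higher and 4 lower at 15 against 13.5, and 1 higher and 2 lower at 16.5 against 13.5 months. It called 1 higher and 0 lower both at 13.5 against 12 and at 16.5 against 15 months. The 2 references against which miR-191-5p did not pass the test at 16.5 against 12 months were the strands of miR-423. The ratio differences there were 0.45 (SE 0.25, adjusted p = 0.158, permutation test) for miR-423-3p and 0.11 (SE 0.50, adjusted p = 0.851, permutation test) for miR-423-5p.

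Of the references themselves 4 of 8 were called over age by edgeR, beside the 61.0% of all microRNAs. Between 16.5 and 12 months 2 of them were called, miR-93-5p with a log2 fold change of -0.70 (adjusted p = 0.00405) and miR-103-3p with -0.33 (adjusted p = 0.0273), both lower. In that comparison edgeR gave miR-25-3p a fold change of 0.15 (adjusted p = 0.203), miR-484 one of 0.05 (adjusted p = 0.756) and miR-423-5p one of 0.86 (adjusted p = 0.189). None of these was called at any pair of ages. Relative to miR-423-5p neither member passed, miR-191-5p with 0.11 (SE 0.50, adjusted p = 0.851, permutation test) and miR-425-5p with -0.26 (SE 0.56, adjusted p = 0.726, permutation test). Relative to miR-484 the ratio of miR-191-5p was higher by 0.56 (SE 0.11, adjusted p = 0.00139, permutation test), and relative to miR-25-3p by 0.50 (SE 0.13, adjusted p = 0.00362, permutation test). For miR-425-5p the differences were 0.19 (SE 0.16, adjusted p = 0.398, permutation test) and 0.13 (SE 0.13, adjusted p = 0.463, permutation test), and neither passed.

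Whether the members varied together across libraries was described by Pearson's r. With each age's mean subtracted, r of the log2 CPM of miR-191-5p and miR-425-5p was -0.00028 over 40 libraries, and 45.6% of the 5460 pairs of microRNAs had a lower r. Without the subtraction it was 0.232. Within single ages (n = 10 each) it was 0.478 at 12 months, 0.0375 at 13.5 months, -0.319 at 15 months and -0.225 at 16.5 months. Single libraries set the sign: without that of tag B_26 the 15-month r was 0.346, without that of tag G the 16.5-month r was 0.104 (n = 9 each), and without both the r after subtraction was 0.244 (n = 38). The value also rests on the scaling, and the points share library and depth. Under library totals alone r was 0.871 with a median of 0.642 over all pairs. Among 35 pairs of tested microRNAs whose mature sequences lie within 10 kb of each other on 1 strand, r after subtraction ran from -0.727 to 0.871 with a median of 0.339, and 10 pairs were below the members.

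After subtraction of the age means, the 5 microRNAs closest to miR-191-5p were miR-486b-5p and miR-486a-5p (r = 0.587 for both, which have equal counts), miR-8114 (0.579), miR-484 (0.576) and miR-320-3p (0.557). Those closest to miR-425-5p were miR-99b-5p (0.591), miR-186-5p (0.536), miR-30b-5p (0.533), miR-99a-5p (0.532) and miR-30d-5p (0.519). The 2 lists had 0 names in common, and 65 microRNAs were closer to miR-191-5p than miR-425-5p was. These are descriptions over 40 libraries with a shared scaling. With all miR-486 rows left out, miR-8114 (r = 0.602), miR-484 (0.553) and miR-320-3p (0.547) were the closest to miR-191-5p. Under library totals the 5 closest to each member had r from 0.903 to 0.95. There miR-23a-3p was in both lists, miR-186-5p and miR-30d-5p were again among those of miR-425-5p, and none of those of miR-191-5p recurred.

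Blood holds several cell types, and in bulk samples fewer cells of a type and less RNA per cell cannot be told apart. The label total blood was checked against markers, beginning with red cells. Of 7 red cell microRNAs 5 had medians from 39116 (miR-451a) to 4421582 reads per library (miR-486a-5p and miR-486b-5p), whereas miR-144-5p had a median of 142 and miR-144-3p of 13 reads. Of the 2 liver microRNAs miR-122-5p had at most 3 reads, while miR-192-5p had between 447 and 15268 and was called over age (adjusted p = 0.00182, edgeR). The brain and muscle microRNAs miR-124-3p, miR-9-5p and miR-1a-3p had at most 1, 4 and 0 reads, although miR-133a-3p reached 233. Of 4 lymphoid microRNAs 3 were tested and all 3 were called over age, beside 61.0% of the 105. At 16.5 against 12 months 2 of them were called higher, beside 13.3% of the 105, with a median of 0.86. The remaining miR-181a-5p had 0.27 there (adjusted p = 0.189, edgeR). It was the only lymphoid microRNA called higher at 13.5 against 12 months (1.25, adjusted p = 2.22e-08, edgeR), beside 15.2% of the 105. The summed level of the lymphoid list ran from 211 to 483 CPM at 12 months, 414 to 803 at 13.5 months, 229 to 523 at 15 months and 243 to 1007 at 16.5 months. Its medians at these ages were 340, 682, 378 and 479 CPM, highest at 13.5 months. Of the red cell microRNAs 6 were tested and 4 were called over age, beside 61.0% of the 105, with 2 called lower at 13.5 against 12 months, beside 14.3%. Among these 4 are miR-486a-5p and miR-486b-5p, whose counts are equal. The summed scaled level of the red cell list had medians of 733943 CPM at 12, 785545 at 13.5, 1258920 at 15 and 758789 at 16.5 months. The TMM factors rescale the totals, so that such sums can exceed the nominal total. Of the platelet and endothelial list 2 of 5 and of the myeloid list 2 of 4 microRNAs were tested, and miR-223-3p, which both lists hold, was the only one of them called lower at 13.5 against 12 months (-0.59, adjusted p = 0.0281, edgeR). At 16.5 against 12 months their medians were -0.29 and -0.18. Their summed levels had ranges that overlapped at every age, 19.8 to 88.3 CPM and 1406 to 4280 CPM over all libraries. The part of these cell types in the levels of miR-191-5p and miR-425-5p was not tested.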

How the data were processed

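Small RNA libraries of total mouse blood (TruSeq Small RNA, single-end reads of 50 bases) were analysed from the raw count table that the authors deposited. The authors trimmed adapters with cutadapt, checked reads with FastQC 0.11.5, mapped them to mm10 and counted mature microRNAs of miRBase 21 with miRDeep2, with 0 mismatches, from 2 bases upstream to 5 bases downstream of the mature position and without reads under 18 bases. A read that fits several hairpins could be entered in each. A second deposited table of normalized values was not used. Groups were the ages in the labels, and 0 columns were left without an age.

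Differences were tested on all 40 libraries with edgeR 4.0.16 (TMM, glmQLFit, glmQLFTest) in R 4.3.3 on microRNAs with more than 100 reads in 50% of libraries, at a Benjamini-Hochberg adjusted p under 0.05. The SE of a fold change was taken from its F statistic (absolute fold change divided by root F). The prior count of log2 CPM was 2. In simulated counts for 105 microRNAs with 30 changed by 1 on the log2 scale, 94.3% were recovered at 16.5 against 12 months and 5.02% of calls were false. These counts were drawn from edgeR's own fitted model, and the members differed by at most 0.62, so these rates do not carry over to the members' calls. Ratios were compared by two-sided permutation tests (scipy 1.17.1). Repeats used DESeq2 1.42.0, limma 3.58.1, other scalings, filters and sets of libraries. No 2 libraries of an age agreed within sampling noise.

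Named are the members, their 3p strands, microRNAs sharing a seed, the 5 with the highest correlation with each member, the 8 references, and lists of red cell, platelet and endothelial, myeloid, lymphoid, liver, and brain and muscle microRNAs. Members and lists were chosen with earlier results of these data known. The subsets without tag B, B_26 or G libraries, the paired ratios, the pairs within 10 kb and the change of all pairs were added after the data were seen. Sequences come from RefSeq (GRCm38.p6), in which 90 of the 105 tested names had a mature sequence.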

Additional observations from a re-analysis of the deposited data

Results flagged for a closer look

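In each group of 10 libraries the highest and lowest value was compared with the next one by Dixon's ratio at its 95% limit. Of 28 groups, 2 stood out, and chance gives about 1 in 20. Both belong to 1 library, that of tag B_26 at 15 months. Its miR-191-5p level was 13.70 log2 CPM, against 12.94 in the next highest library of that age. Its log2 ratio of miR-425-5p to miR-191-5p was -6.23, against -5.25 in the next lowest. Over the 3 libraries of tag B the level of miR-191-5p was 13.07 ± 0.58 log2 CPM and over the 7 of tag C 12.67 ± 0.17 (SD), while miR-425-5p had 7.69 ± 0.28 and 7.68 ± 0.08.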

How the results depend on the processing

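Differences below are on the log2 scale with adjusted p in brackets. Of 316 repeats of the members' differences and ratios under other settings 270 kept direction and side of the threshold, among them all those of the ratio of miR-425-5p to miR-191-5p and of both tests over age. Library totals alone gave for miR-191-5p -0.87 (3.99e-05) at 15 against 12, 0.42 (0.171) at 16.5 against 12, -1.08 (8.84e-07) at 15 against 13.5 and 0.21 (0.364) at 16.5 against 13.5 months. For miR-425-5p they gave -0.30 (0.527) at 13.5 against 12, -0.69 (0.0127) at 15 against 12, 0.17 (0.621) at 16.5 against 12, -0.39 (0.160) at 15 against 13.5, 0.47 (0.158) at 16.5 against 13.5 and 0.86 (0.00423) at 16.5 against 15 months. They moved the median of all microRNAs by up to 0.80 and the r of the members to 0.871, or 0.808 with age left in. The spans of the age means became 1.23 and 0.79, and the SD within ages of miR-425-5p 0.59.

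The difference of miR-191-5p at 15 against 12 months was 0.059 with RLE size factors and 0.0588 with DESeq2, 0.10 without miR-486 and 0.11 in a fit of these 2 ages, and -0.14 to 0.069 with 1 library left out. Limma voom called miR-191-5p at 13.5 against 12 (0.25, 0.0223) and 15 against 13.5 (-0.43, 7.85e-05) and miR-425-5p at 16.5 against 15 months (0.26, 0.00653). The last was also called with 1 factor of unwanted variation (0.24, 0.0298) and without the library of tag G (0.28, 0.0204). Without the 3 libraries of tag B, miR-191-5p was called at 13.5 against 12 (0.21, 0.0462) and 15 against 13.5 (-0.30, 0.00623). Without any filter the differences were 0.35 for miR-191-5p at 16.5 against 13.5 and -0.34, -0.039, 0.23 and 0.30 for miR-425-5p at 13.5 against 12, 15 against 12, 16.5 against 12 and 15 against 13.5 months, none called. With the filter at 1 read miR-425-5p had -0.31 (0.0512) at 13.5 against 12 and 0.27 (0.106) at 16.5 against 12. Leaving out 1 library at a time gave 0.16 to 0.27 for miR-191-5p at 13.5 against 12, -0.37 to -0.13 at 15 against 13.5, and 0.15 to 0.28 for miR-425-5p at 16.5 against 15.

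For the ratio of 5p to 3p of miR-191, 15 against 12 was -0.76 and 15 against 13.5 -0.55 with 1 added (both called) and 16.5 against 13.5 was -0.0062. Without 1 library these ran from -0.73 to -0.52 (15 against 12, called without tag B_26 or C_7) and -0.13 to 0.15 (16.5 against 13.5), and the difference of medians at 16.5 against 12 was 0.076. For miR-425, without tag B 15 against 13.5 was -0.014 and 16.5 against 15 was 0.84 (called), the latter 0.51 to 0.79 without 1 library (called without tag B_24, or without tag D of 16.5 months). The r of the members was -0.118 without miR-486, 0.169 without tag B_26, 0.040 without tag G and 0.244 without both. Counts of called microRNAs over age were 135 with the filter at 1 read, 113 with none and 21 with age as a line, against 64. With the filter at 1 read they were 54, 39, 48, 93 and 74 at 13.5 against 12, 15 against 12, 16.5 against 12, 15 against 13.5 and 16.5 against 13.5, against 31, 25, 25, 50 and 42. Library totals gave 12, 84, 5 and 66 at 13.5 against 12, 15 against 12, 16.5 against 12 and 16.5 against 15, and 1 factor of unwanted variation 54, 44 and 47 at 13.5 against 12, 15 against 12 and 16.5 against 15, against 30 in the last. The causes were not tested.

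The column names carry 10 numbers that recur at each age. Libraries of 1 number did not deviate together (mean r -0.0051 over 60 pairs, 24 over 0.1, against 0.0019 for other numbers), so they were not treated as paired. With the number as a replicate block no call of a member changed. miR-191-5p at 16.5 against 12 months then had 0.62 (0.000183) and miR-425-5p 0.27 (0.0463), and the calls over age numbered 66. The 3p strands, with 1 to 75 reads per library, limit what can be said of strand ratios. The library of tag B_26 at 15 months and that of tag G at 16.5 months changed calls and the r of the members. They had 114748 and 93002 counts outside miR-486, against a mean of 659950 over the 40 libraries. Whether their depth played a part was not tested.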
